A study of Mus musculus with 12 samples.

Results

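The genes described here encode the matrix metalloproteinases (Mmp), the Adamts proteases, the Adamts-like proteins and the tissue inhibitors of metalloproteinases (Timp) of the mouse. They were found by their symbols among the genes of the deposited count table, by a rule that reads no values. The families, and the related gene lists used below, were chosen with earlier results of these data known. The rule matched 49 of 36512 genes, namely 21 Mmp, 19 Adamts, 5 Adamts-like and 4 Timp genes. Of these, 46 had enough counts to be tested, among 21285 genes tested in all, and Mmp10, Mmp13 and Mmp20 did not.

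Metalloproteinases of these families are zinc enzymes that cut the proteins of the extracellular matrix, and most are made as inactive precursors that lose a propeptide before they act. Mmps as a family cleave collagens, gelatins, basement membrane and other pericellular proteins, whereas Adamts enzymes cleave proteoglycans such as versican and aggrecan, trim the ends of procollagens or act on fibrillin microfibrils. Adamts-like proteins lack the protease domain, and Timps bind the active site of the enzymes and block it. In the vessel wall and its fat these genes are known for matrix turnover in growth, in adipocyte differentiation and in aneurysm.

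Flow cytometry was used to sort cells of the aorta and of the perivascular fat, the fat around the vessel, of wild type CD-1 pups of mixed sex at postnatal day 3. The labels name the sorted populations progenitor cells, intermediate cells, preadipocytes and smooth muscle cells (SMC), with 3 libraries each, 12 in all. All 4 groups share the genotype, strain, age and tissue, and the labels name no treatment. Tissue was digested with Collagenase D and Dispase II before sorting, poly(A) RNA was amplified with SMART-Seq v4, and the sources used here do not give the gates. The labels do not say whether replicates are separate litters or separate sorts, and p-values therefore reflect the spread between these libraries only, which may be technical.

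Libraries held 11701825 to 17123109 counts. The 6 progenitor markers looked at (Pi16, Dpp4, Ly6a, Pdgfra, Cd55, Cd248) summed to 2906 to 3344 CPM (counts scaled to the depth of the library) in progenitor libraries and to at most 662 elsewhere. Of these, Dpp4 separated progenitor from smooth muscle libraries little, with means of 93.2 and 76.6 CPM. The 6 preadipocyte markers (Pparg, Cebpa, Fabp4, Adipoq, Plin1, Ucp1) reached 3076 to 4980 CPM in preadipocyte libraries against at most 412, and the 6 smooth muscle markers (Myh11, Acta2, Cnn1, Smtn, Tagln, Lmod1) 6835 to 7483 in smooth muscle libraries against at most 1185, found in intermediate libraries. No marker list was at hand for the intermediate population. Of other cell types, mesothelial markers summed to 1110 to 1500 CPM in smooth muscle libraries and 14.7 to 194 elsewhere, and Schwann and neuronal markers to 529 to 708 against 18.6 to 96.0. Macrophage sums were 17.8 to 35.8 CPM, neutrophil sums 1.25 to 35.7, endothelial sums 45.2 to 149, cartilage sums 44.7 to 223 and skeletal muscle sums 7.52 to 26.9. Osteoclast markers summed to 348 to 477 CPM in progenitor and intermediate and to 57.0 to 74.3 in the other libraries, and most of that was Ctsk (364 CPM in progenitor and 436 in intermediate), while Oscar, Dcstamp and Ocstamp averaged under 1 CPM in both. Handling-response genes such as Fos and Jun summed to 5851 to 9679 CPM in preadipocyte libraries, 10328 to 11360 in smooth muscle libraries and 15258 to 20210 in the rest.

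Levels below are CPM after TMM scaling, given in the order of replicates 1, 2 and 3. Tests are edgeR's quasi-likelihood tests in 1 model over all 12 libraries, with p-values adjusted over all 21285 genes by the Benjamini-Hochberg method and called at 0.05. The 4 populations share 1 estimate of the spread of each gene. Preadipocyte replicates differed most from each other, with a chi-square per degree of freedom of 39.7 to 84.5 between 2 libraries, against 4.37 to 14.1 in the other populations. Differences between populations are log2 fold changes with their standard errors (SE). In bulk RNA a lower level can mean fewer cells of a type or less RNA per cell, and these cannot be told apart. All 46 members tested differed among the 4 populations, where 79.8% of all genes tested did. Levels spanned a wide range: 34 members averaged at least 10 CPM in some population, 5 reached 2 to 10 CPM, and 10 stayed under 2 CPM in every population (Adamts13, Mmp1a, Mmp8, Mmp10, Mmp12, Mmp13, Mmp20, Mmp21, Mmp25 and Mmp27). Those of the last group that are named below were singled out after their values were seen.

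**Figure D1:**
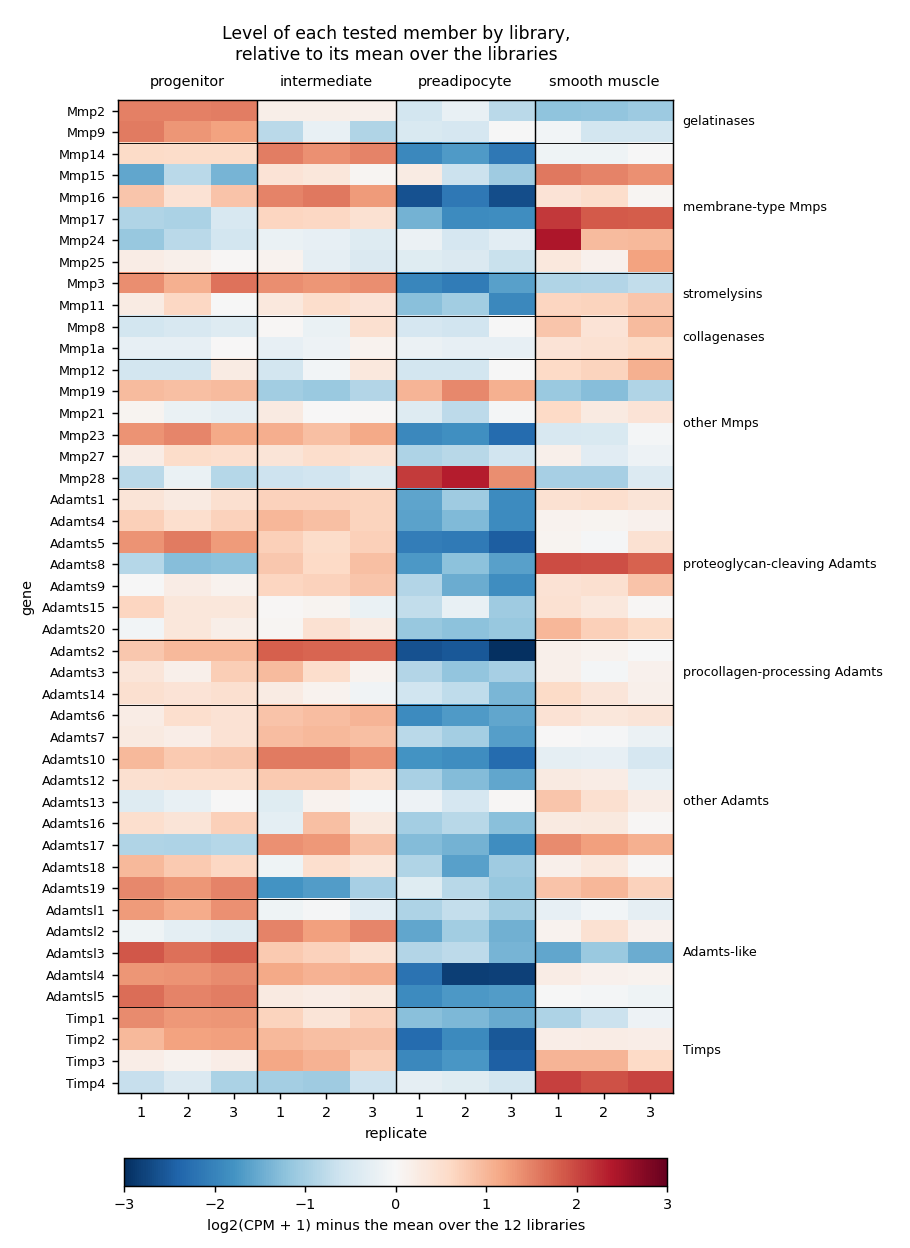
Each cell shows 1 of the 46 tested members (rows, grouped by role) in 1 of the 12 libraries (columns, by replicate) as log2(CPM + 1) minus the member's mean over the libraries, red above and blue below that mean. The 3 preadipocyte columns are blue for most rows, and the exceptions include Mmp19 and Mmp28; Timp4, Mmp17 and Adamts8 are reddest in smooth muscle.

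Preadipocyte libraries held the lowest levels of most members. Against progenitor libraries, 2 members were higher and 35 lower in preadipocytes, where 50.9% of all genes differed and 25.9% were lower. Against intermediate libraries the counts were 4 higher and 33 lower, where 57.1% of all genes differed and 31.1% were lower. Smooth muscle libraries exceeded preadipocyte libraries for 41 members and fell below them for 3, where 66.6% of all genes differed and 40.7% were higher in smooth muscle. The 41 include Mmp12, Mmp1a and Adamts13, which in smooth muscle lay under 2 times an even background described below. The median log2 difference of the members was -1.92 for preadipocyte minus progenitor, -2.12 for preadipocyte minus intermediate and 2.06 for smooth muscle minus preadipocyte, beside medians of 0.04, -0.24 and 0.35 over all genes tested. These comparisons share the preadipocyte libraries. By all 3 pairwise tests, 30 of the 46 members (65.2%) were lowest in preadipocytes, a class that held 15% of all genes, and this count was 27 to 31 under the 21 alternatives tried. Single libraries moved the small counts of members higher in preadipocytes: against progenitor it was 1 without progenitor replicate 1 or preadipocyte replicate 1, and against intermediate it was 2 without preadipocyte replicate 1. The 8 handling-response genes, none under 1 CPM in any population, also had their lowest sums in preadipocyte libraries (5851 to 9679 CPM against 10328 to 20210 elsewhere), and their part in these differences was not tested.

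**Figure D2:**
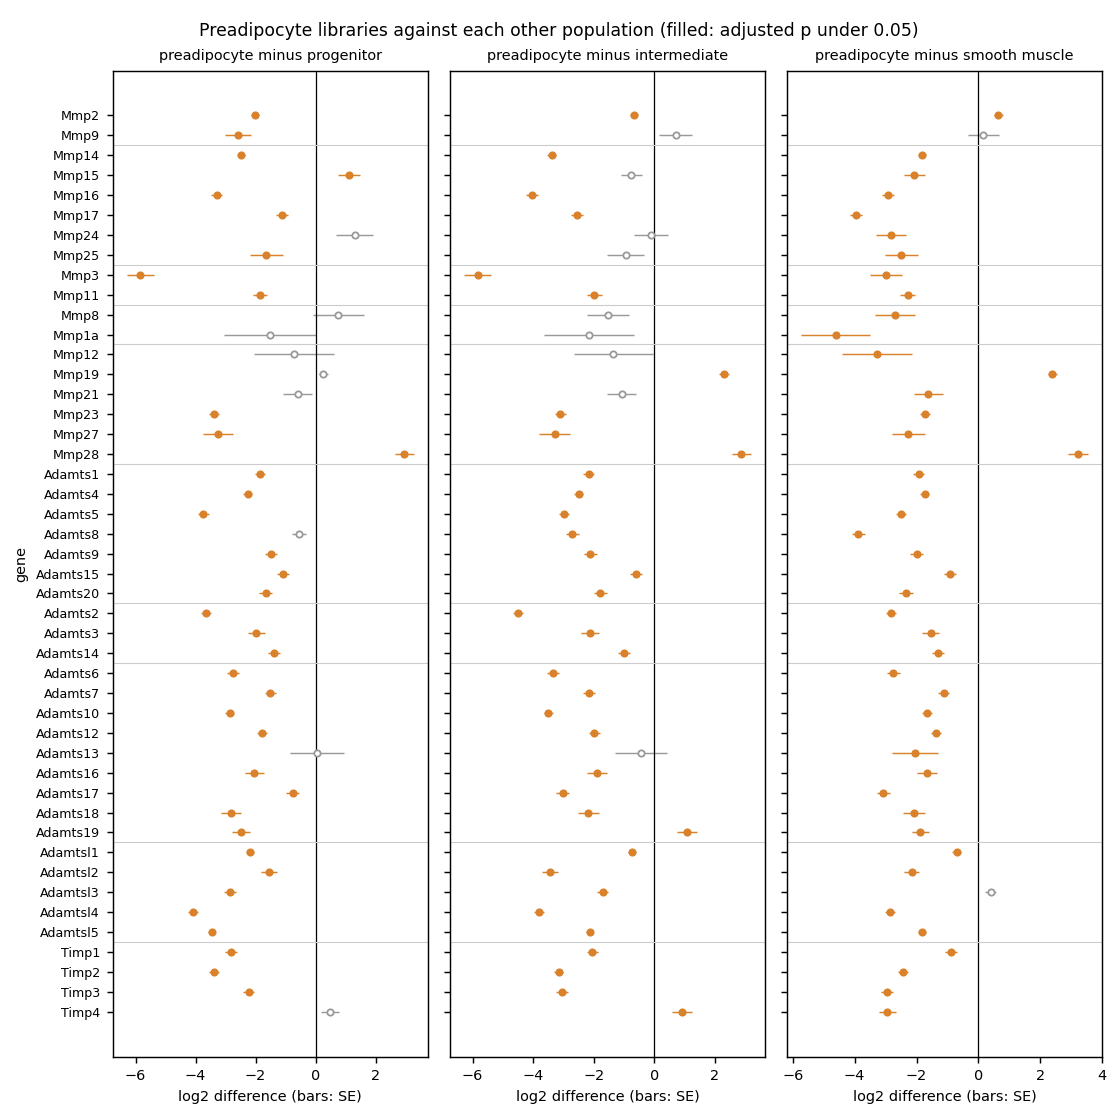
Points are log2 differences of preadipocyte libraries from progenitor, intermediate and smooth muscle libraries (panels) for each of the 46 tested members (rows, in the order of roles of the heat map), with SE bars; filled orange points have an adjusted p under 0.05. Most filled points lie left of 0, 35 of them in the first panel, and Mmp28 lies right of 0 in all 3.

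The other contrasts were mixed. Intermediate libraries exceeded progenitor libraries for 14 members and were lower for 9, where 14.1% of all genes were higher and 13.4% lower. In that contrast 27.6% of all genes differed, and the median member differed by 0.14. Smooth muscle exceeded progenitor for 13 members, near the 30.5% of all genes that were higher, and was lower for 17, where 23.6% were lower. Between these populations 54.1% of all genes differed. Against intermediate libraries, smooth muscle was higher for 8, near the 15.7% of all genes that were higher, and lower for 18, where 13.1% were lower. Here 28.8% of all genes differed. Both splits of smooth muscle depended on the scaling: with library size alone they became 19 higher and 14 lower against progenitor, and 18 higher and 12 lower against intermediate. Leaving out progenitor replicate 2 or any 1 of the intermediate libraries moved the median over all genes of smooth muscle minus progenitor from 0.09 to between -0.17 and -0.15, and the members' median from -0.38 to between -0.62 and -0.60. In these fits 9 to 10 members were higher and 25 to 26 lower in smooth muscle than in progenitors. The 14 members higher in intermediate than in progenitor became 8 without progenitor replicate 2 or intermediate replicate 2 and 9 without intermediate replicate 1, and the 8 higher in smooth muscle than in intermediate became 5 without intermediate replicate 3. Highest by all 3 tests were 7 members in progenitors (4.16% of all genes), 7 in intermediate cells (2.15%) and 1 in preadipocytes (17.0%). In smooth muscle 6 of the 46 members tested were highest, near the share of all genes (10.9%). Without intermediate replicate 1 the first count was 12 and the second 4, and without progenitor replicate 2 or intermediate replicate 2 the second was 3.

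As summed levels, the 21 Mmp genes held 3376, 3400 and 3348 CPM in progenitor, 3163, 2945 and 3099 in intermediate, 1201, 1194 and 1284 in smooth muscle and 742, 902 and 624 in preadipocyte libraries. The 19 Adamts genes held 3994, 3935 and 4179 CPM in progenitor, 5752, 5665 and 5465 in intermediate, 3357, 3386 and 3140 in smooth muscle and 829, 1017 and 630.2 in preadipocyte libraries. No preadipocyte sum overlapped that of another population in either family. The 5 Adamts-like genes held 513, 474 and 519 CPM in progenitor, 297, 285 and 277 in intermediate, 168, 174 and 159.6 in smooth muscle and 66.1, 69.5 and 56.0 in preadipocyte libraries. The 4 Timp genes held 1759, 2028 and 2056 CPM in progenitor, 1831, 1740 and 1698 in intermediate, 1144, 1162 and 1108 in smooth muscle and 199, 254 and 165 in preadipocyte libraries. After TMM scaling, mean sums of smooth muscle libraries ranked below those of progenitor and intermediate and above those of preadipocyte libraries in all 4 families. Intermediate libraries led in the Adamts sum. The Adamts order of smooth muscle against progenitor depended on the scaling: by library size alone, every smooth muscle sum of this family exceeded every progenitor sum.

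Of the gelatinases, Mmp2 cuts denatured collagen and basement membrane collagen and lies on chromosome 8 from 92827291 to 92853420 of mm10. Mmp2 stood at 1788, 1802 and 1817 CPM in progenitor, 714, 708 and 704 in intermediate, 272, 278 and 296 in smooth muscle and 428, 535 and 359 in preadipocyte libraries. No 2 populations overlapped, progenitor libraries were highest and smooth muscle libraries lowest. The log2 difference was -2.68 ± 0.14 (adjusted p = 8.83e-10) for smooth muscle minus progenitor, -1.35 ± 0.14 (adjusted p = 3.84e-06) for intermediate minus progenitor and -0.64 ± 0.14 (adjusted p = 0.000671) for smooth muscle minus preadipocyte. Mmp2 was the 1 member lowest in smooth muscle by all 3 tests (3.64% of all genes). Adamtsl3 joined that class under some alternatives, among them DESeq2, its size factors in edgeR and the removal of progenitor replicate 2 or any 1 of the intermediate libraries. In preadipocytes Mmp2 ranked first of all members per kilobase of exon, at 131 CPM per kilobase against 43.2 for Timp2. The other gelatinase, Mmp9, known from leukocytes and remodelling tissue, was at 5.51, 4.51 and 4.09 CPM in progenitor, 0.267, 0.902 and 0.182 in intermediate, 1.08, 0.509 and 0.495 in smooth muscle and 0.594, 0.544 and 1.17 in preadipocyte libraries. Mmp9 was thus low throughout but higher in every progenitor library than in any other, by a log2 difference of -3.30 ± 0.49 (adjusted p = 0.000172) for intermediate minus progenitor and -2.59 ± 0.44 (adjusted p = 0.000126) for preadipocyte minus progenitor. Without intermediate replicate 2 the first of these was -4.48. The intermediate mean of Mmp9, 0.450 CPM, lay under 2 times the 0.228 CPM of an even background described below, so the size of that difference is uncertain. Sums of the 8 neutrophil markers, of which 2 were tested, were 2.61 to 4.79 CPM in progenitor libraries, with Retnlg at 0, and 6.24 to 35.7 in preadipocyte libraries, and sums of the 8 macrophage markers were 22.7 to 32.4 CPM in progenitor and 17.8 to 35.8 in other libraries.

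Membrane-type Mmps are tethered to the cell surface. Mmp14, the best known of them, cuts fibrillar collagen and, with Timp2 as a bridge, activates the precursor of Mmp2. Its gene lies on chromosome 14 from 54431612 to 54445364, and its levels were 938, 926 and 934 CPM in progenitor, 1831, 1652 and 1782 in intermediate, 578, 583 and 628 in smooth muscle and 165, 195 and 142 in preadipocyte libraries. The populations did not overlap, and the intermediate libraries were highest under every alternative. Intermediate minus progenitor was 0.91 ± 0.13 (adjusted p = 9.39e-05), smooth muscle minus intermediate -1.56 ± 0.13 (adjusted p = 1.82e-07) and preadipocyte minus intermediate -3.39 ± 0.14 (adjusted p = 5.66e-11). The 0.65 by which smooth muscle fell below progenitor lost its call with library size alone (-0.20, adjusted p = 0.101). Mmp16, also membrane-spanning, followed the same order of means, at 96.9, 73.2 and 98.5 CPM in progenitor, 153, 164 and 134 in intermediate, 72.4, 78.7 and 56.2 in smooth muscle and 8.04, 11.5 and 7.69 in preadipocyte libraries. Its intermediate libraries exceeded its progenitor libraries by 0.75 ± 0.17 (adjusted p = 0.00570), a call lost without progenitor replicate 2 (0.47, adjusted p = 0.0875) or intermediate replicate 2 (0.54, adjusted p = 0.0675).

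Another 3 membrane-type genes were highest in smooth muscle. Mmp17, a lipid-anchored enzyme known from the aortic wall, was at 7.30, 7.04 and 10.2 CPM in progenitor, 23.4, 22.9 and 20.4 in intermediate, 67.1, 54.9 and 54.1 in smooth muscle and 4.80, 3.20 and 3.29 in preadipocyte libraries. Every smooth muscle library exceeded every intermediate library, which in turn exceeded the rest, with smooth muscle minus intermediate at 1.40 ± 0.18 (adjusted p = 2.03e-05) and minus preadipocyte at 3.96 ± 0.20 (adjusted p = 5.01e-10). Mmp15, a membrane-spanning relative of Mmp14, was at 1.40, 3.01 and 1.67 CPM in progenitor, 8.29, 7.89 and 6.27 in intermediate, 20.2, 18.7 and 17.2 in smooth muscle and 7.34, 3.51 and 2.34 in preadipocyte libraries. Smooth muscle exceeded intermediate by 1.32 ± 0.33 (adjusted p = 0.00652) and progenitor by 3.19 ± 0.37 (adjusted p = 3.77e-06); the first call was lost without intermediate replicate 3 (0.98, adjusted p = 0.0663). Mmp15 was also the 1 member lowest in progenitors by all 3 tests (3.29% of all genes), although its progenitor and preadipocyte libraries overlapped. Preadipocyte minus progenitor was 1.11 ± 0.37 (adjusted p = 0.0192). The call was lost without progenitor replicate 1 (0.91), without progenitor replicate 3 (0.98), without preadipocyte replicate 1 (0.52) and in the fit to the pair alone (1.09).

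Mmp24, best known from neurons, was at 0.0776, 0.342 and 0.603 CPM in progenitor, 1.07, 0.977 and 0.818 in intermediate, 11.6, 3.56 and 3.67 in smooth muscle and 1.08, 0.665 and 0.891 in preadipocyte libraries. All smooth muscle libraries exceeded all others, and replicate 1 stood far above the other smooth muscle libraries. Smooth muscle minus progenitor was 4.13 ± 0.56 (adjusted p = 2.34e-05), and it was 3.34 (adjusted p = 9.74e-05) without that library. Smooth muscle minus intermediate was 2.70 ± 0.50 (adjusted p = 0.000661), and 1.91 (adjusted p = 0.00619) without it. The sixth membrane-type gene, Mmp25, stayed under 2 CPM on average in every population. Exons of Mmp24 overlap those of BC029722, a gene on the opposite strand, over 13.6% of their length, and the sources used here do not give the strand of counting. The same limit holds for Timp3 with Syn3 (21.3%), Mmp19 with Tmem198b (22.3%), Mmp28 with 1700020L24Rik (12%) and Adamts8 with Gm29724 (10.6%).

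**Figure D3:**
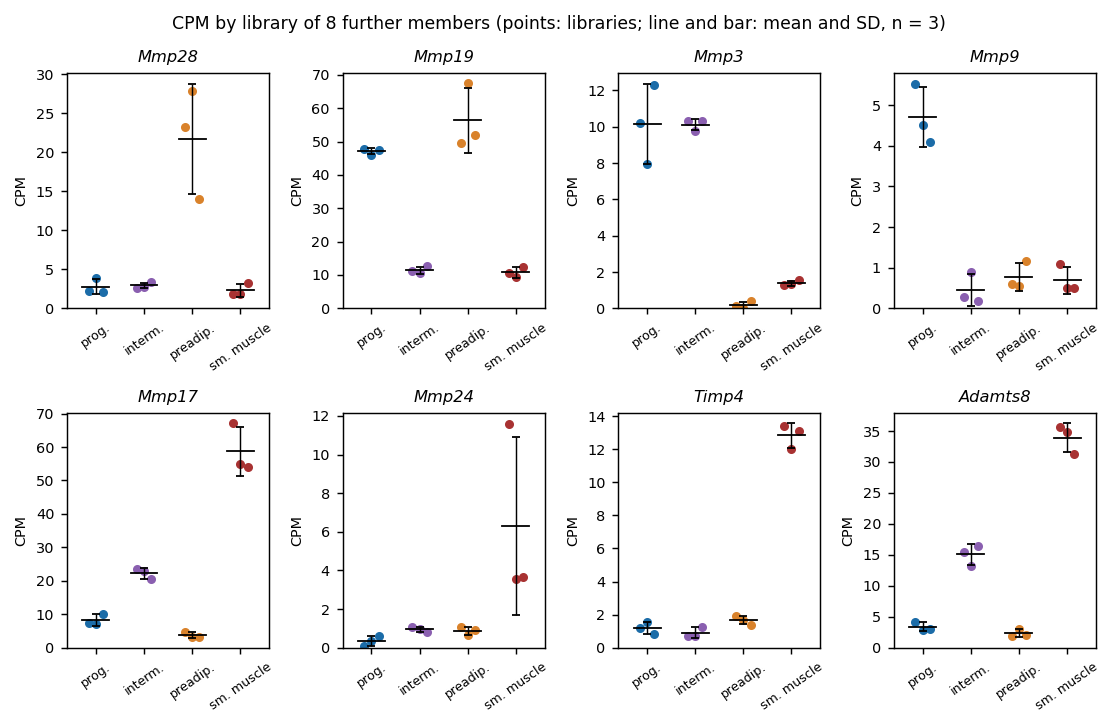
CPM (vertical axes, linear from 0) of 8 members in the 4 populations (horizontal axes), with points for libraries and lines and bars for the mean and SD of 3 libraries. Mmp28 is highest in the preadipocyte libraries (14.0 to 27.9 CPM) and Mmp9 in the progenitor libraries, Mmp3 is high in progenitor and intermediate libraries, and in the Mmp24 panel a single smooth muscle library stands at 11.6 CPM.

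Stromelysins and collagenases were low. Mmp3, stromelysin-1, activates other Mmps and cuts proteoglycans, and was at 10.2, 7.93 and 12.3 CPM in progenitor, 10.3, 9.77 and 10.3 in intermediate, 1.29, 1.34 and 1.55 in smooth muscle and 0.108, 0 and 0.390 in preadipocyte libraries. Progenitor and intermediate libraries overlapped, and both lay above all smooth muscle and preadipocyte libraries. In counts, preadipocyte libraries held 0 to 7, and the library at 0 allows up to 0.193 CPM by library size (3 counts, counting error only). The log2 difference was -5.84 ± 0.45 (adjusted p = 3.49e-08) for preadipocyte minus progenitor, the largest in size among the members, and was -7.27 without preadipocyte replicate 3. Mmp11, stromelysin-3, is cut to its active form inside the cell by furin and was at 17.4, 22.7 and 14.3 CPM in progenitor, 18.4, 21.2 and 19.5 in intermediate, 23.2, 23.5 and 26.4 in smooth muscle and 5.51, 6.47 and 3.06 in preadipocyte libraries. Preadipocyte libraries were lowest, by -1.85 ± 0.24 (adjusted p = 7.67e-06) against progenitor, and no test among the other 3 populations passed the threshold. Mmp11 exons overlap those of Chchd10 over 5.58%. The collagenases Mmp1a, Mmp8 and Mmp13 averaged at most 1.64 CPM in any population. Mmp1a has a paralog, Mmp1b. The sources used here do not say how reads that match both were counted, so the counts of Mmp1a are uncertain.

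Mmp3 belongs to a row of 8 members on chromosome 9 between 7272514 and 7674979 of mm10, in the order Mmp13, Mmp12, Mmp3, Mmp1a, Mmp10, Mmp8, Mmp27 and Mmp20. Mmp3 apart, these genes averaged under 2 CPM in every population. RefSeq promoter windows of GRCm38.p6, from 250 bases before to 50 after the start, were found for 34 of the 49 members, the 8 of this row included. The stretches below show the 150 bases before the start of the 5 windows in the row that hold the AP-1 motif, chosen after the matches were seen. AP-1 is the motif bound by dimers of the Fos and Jun proteins, and its letters are in capitals (TGACTCA or TGAGTCA). The stretches lie on the plus strand at chr9:7272364-7272513 (Mmp13), chr9:7347224-7347373 (Mmp12), chr9:7445672-7445821 (Mmp3), chr9:7463991-7464140 (Mmp1a) and chr9:7502192-7502341 (Mmp10).
Mmp13: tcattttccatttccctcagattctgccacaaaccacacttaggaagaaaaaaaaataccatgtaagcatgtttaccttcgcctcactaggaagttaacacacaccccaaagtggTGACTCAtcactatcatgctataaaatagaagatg
Mmp12: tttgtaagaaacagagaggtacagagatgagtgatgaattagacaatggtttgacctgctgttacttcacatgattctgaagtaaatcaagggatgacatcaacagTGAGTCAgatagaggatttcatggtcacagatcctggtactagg
Mmp3: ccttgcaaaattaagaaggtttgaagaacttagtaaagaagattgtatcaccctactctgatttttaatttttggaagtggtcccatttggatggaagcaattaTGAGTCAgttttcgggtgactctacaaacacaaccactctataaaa
Mmp1a: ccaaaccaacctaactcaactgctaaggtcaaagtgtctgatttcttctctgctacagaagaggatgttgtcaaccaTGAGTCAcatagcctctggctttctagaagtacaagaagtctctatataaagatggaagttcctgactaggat
Mmp10: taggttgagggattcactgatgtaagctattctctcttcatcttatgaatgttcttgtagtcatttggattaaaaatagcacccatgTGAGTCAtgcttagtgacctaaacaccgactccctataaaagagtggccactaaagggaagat
The AP-1 letters begin 35 to 73 bases before the start in these windows.

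Windows of members outside the row read differently. The 120 bases before the start of Mmp14 (chr14:54431478-54431597, plus strand), of Timp2 (chr11:118355412-118355531, minus strand) and of Mmp28, the member highest in preadipocytes (chr11:83463041-83463160, minus strand), are shown with the GC box, the motif of Sp1-type factors, in capitals (GGGCGG or its reverse complement). Only windows with a GC box were printed here, and the window of Timp4, also looked at, held none. Starts in all printed stretches are those of RefSeq and can differ from the ends of the gene spans given here, which are those of GENCODE M21.
Mmp14: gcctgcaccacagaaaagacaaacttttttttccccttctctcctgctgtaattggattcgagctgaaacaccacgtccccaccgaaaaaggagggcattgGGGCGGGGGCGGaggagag
Timp2: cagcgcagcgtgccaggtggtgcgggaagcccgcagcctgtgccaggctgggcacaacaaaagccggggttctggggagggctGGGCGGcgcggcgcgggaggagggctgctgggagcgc
Mmp28: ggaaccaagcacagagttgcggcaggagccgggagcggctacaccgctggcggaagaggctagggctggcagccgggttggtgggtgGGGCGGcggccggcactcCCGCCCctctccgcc
AP-1 letters were in 5 of 8 windows of the chromosome 9 row and in 0 of 26 windows of other members, against 5.2% of all 32851 windows. A TATA box (TATAAA) was in 7 of 8 and 3 of 26, against 13.6%. The GC box was in 0 of 8 and 22 of 26, against 35.7%. In all, 12 motifs were searched on both strands, and those described first were chosen after the matches were seen. CRE letters (TGACGTCA) and the motifs CArG and MEF2, searched by name, were in 0 of the 34 windows, against 1.79%, 1.63% and 0.557% of all windows. Members' windows with the E box (CAGCTG, or also CAGGTG, or also CACGTG) numbered 15, with Ets letters (AGGAAA or AGGAAG) 15, with Runx letters (TGTGGT or TGCGGT) 8, with NF-kappaB 6, with TEAD letters (GGAATG) 2 and with GAS (TTCNNNGAA) 1. The same motifs were in 37.7%, 53.4%, 22.4%, 6.93%, 14.7% and 8.3% of all windows. Genes of the row are neighbouring paralogs, and a match is letters in a window, not a measured site.

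Among the remaining Mmps, Mmp28 ran against the family. Mmp28, epilysin, is a secreted enzyme named for its expression in epithelium, and its gene lies on chromosome 11 from 83440768 to 83463071. Mmp28 was at 2.25, 3.90 and 2.14 CPM in progenitor, 2.67, 2.78 and 3.36 in intermediate, 1.86, 1.84 and 3.25 in smooth muscle and 23.2, 27.9 and 14.0 in preadipocyte libraries. All preadipocyte libraries lay above all others, although they spread from 14.0 to 27.9 CPM. Preadipocyte minus progenitor was 2.96 ± 0.31 (adjusted p = 9.69e-07) and preadipocyte minus intermediate 2.88 ± 0.31 (adjusted p = 1.10e-06), calls that held under every alternative. Mmp19, a secreted enzyme found in many tissues, was at 47.7, 46.0 and 47.6 CPM in progenitor, 11.2, 10.6 and 12.6 in intermediate, 10.6, 9.29 and 12.4 in smooth muscle and 49.7, 67.6 and 51.9 in preadipocyte libraries. Progenitor and preadipocyte libraries formed a high pair without a called difference between them (0.26 ± 0.15, adjusted p = 0.160), and intermediate and smooth muscle libraries a low pair. Preadipocyte minus intermediate was 2.30 ± 0.16 (adjusted p = 7.81e-09). Under 4 alternatives, DESeq2, its size factors in edgeR, library size alone and the filter of 5 CPM, Mmp19 was higher in preadipocytes than in progenitors too (0.38, 0.38, 0.64 and 0.39). Mmp23, made as a membrane protein, was at 457, 501 and 401 CPM in progenitor, 384, 339.6 and 399.8 in intermediate, 129.9, 132 and 173 in smooth muscle and 46.2, 49.3 and 35.4 in preadipocyte libraries. Preadipocyte libraries were lowest, by -3.38 ± 0.17 (adjusted p = 3.90e-10) against progenitor, and smooth muscle libraries came next.

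The inhibitors did not move as 1 group. Timp2, which blocks most Mmps and takes part in the activation of Mmp2 by Mmp14, lies on chromosome 11 from 118301069 to 118355740 and was at 1555, 1838 and 1857 CPM in progenitor, 1552, 1486 and 1473 in intermediate, 905, 923 and 910.4 in smooth muscle and 159, 211 and 136 in preadipocyte libraries. Progenitor and intermediate libraries nearly met, with no called difference (-0.22 ± 0.15, adjusted p = 0.281), and preadipocyte libraries were far below all others. Preadipocyte minus progenitor was -3.38 ± 0.16 (adjusted p = 2.67e-10) and smooth muscle minus progenitor -0.94 ± 0.15 (adjusted p = 9.63e-05); smooth muscle minus intermediate, -0.72 ± 0.15 (adjusted p = 0.00149), lost its call with library size alone (-0.23, adjusted p = 0.122). Timp1, a soluble inhibitor on the X chromosome, was at 85.4, 77.8 and 79.6 CPM in progenitor, 49.8, 41.1 and 51.1 in intermediate, 16.0, 19.5 and 28 in smooth muscle and 12.5, 11.7 and 10.2 in preadipocyte libraries. Its progenitor libraries exceeded all others, with intermediate minus progenitor at -0.77 ± 0.17 (adjusted p = 0.00486) and preadipocyte minus progenitor at -2.82 ± 0.19 (adjusted p = 7.60e-09).

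Timp3, which is held in the matrix and also blocks Adamts enzymes, was at 118, 110.2 and 118 CPM in progenitor, 228, 212 and 172 in intermediate, 209, 208 and 156 in smooth muscle and 26.1, 29.7 and 18.0 in preadipocyte libraries. Intermediate and smooth muscle libraries overlapped and exceeded progenitor libraries, with intermediate minus progenitor at 0.82 ± 0.17 (adjusted p = 0.00306). Smooth muscle minus progenitor was 0.73 ± 0.17 (adjusted p = 0.00259), a call lost without progenitor replicate 2 (0.33), any 1 of the intermediate libraries (0.36) or the low-count filter (0.24). Timp4, an inhibitor best known from heart and vessels, was at 1.16, 1.57 and 0.804 CPM in progenitor, 0.713, 0.677 and 1.27 in intermediate, 13.4, 12 and 13.1 in smooth muscle and 1.89, 1.69 and 1.39 in preadipocyte libraries. Smooth muscle libraries stood apart from the rest, by 3.43 ± 0.28 (adjusted p = 1.04e-07) against progenitor and 3.86 ± 0.30 (adjusted p = 1.01e-07) against intermediate. Timp4 lies within Syn2, a neuronal gene on the opposite strand with which its exons share 1.53% of their length, and Syn2 averaged 36.6 CPM in smooth muscle libraries against at most 5.02 elsewhere. The part of these reads in the level of Timp4 was not tested.

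**Figure D4:**
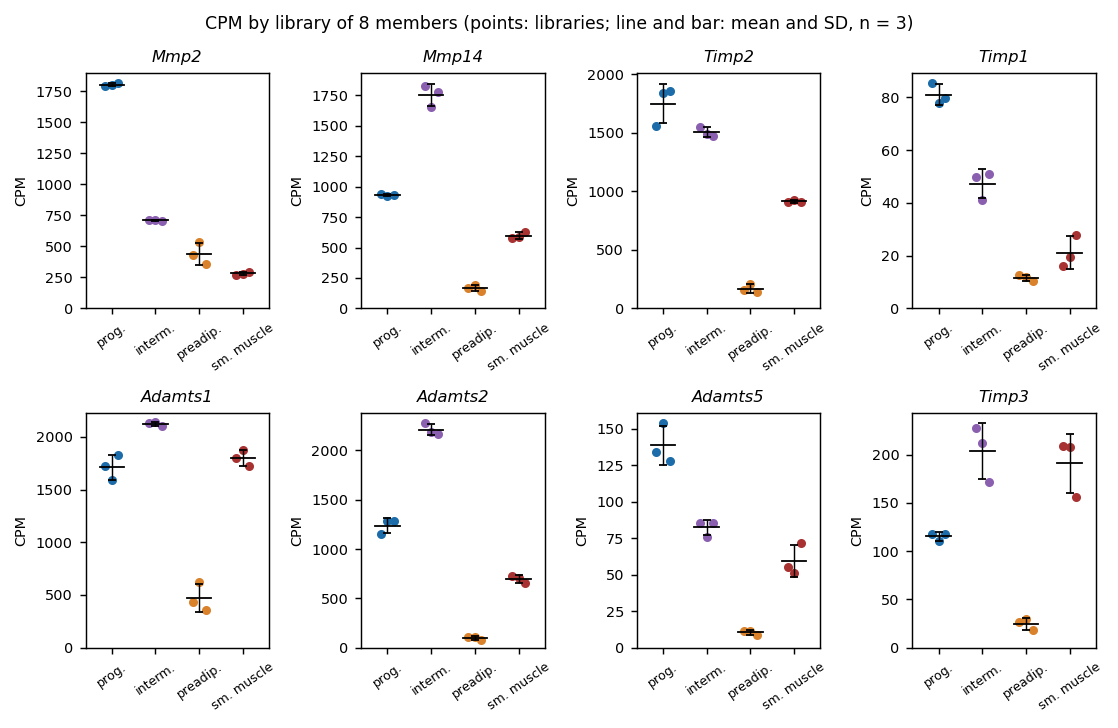
CPM (vertical axes, linear from 0) of 8 members in the 4 populations (horizontal axes), with points for libraries and lines and bars for the mean and SD of 3 libraries. Mmp2, Timp1 and Adamts5 are highest in progenitor libraries, Mmp14 and Adamts2 in intermediate libraries, and 7 of the 8 panels have their lowest points in preadipocytes, Mmp2 being the exception.

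Enzyme and inhibitor levels were also set against each other per kilobase of exon within each library. The ratio of Mmp14 to Timp2 was 0.351 ± 0.0378 (SD, n = 3) in progenitor, 0.763 ± 0.0329 in intermediate, 0.427 ± 0.0206 in smooth muscle and 0.656 ± 0.0447 in preadipocyte libraries. The ratio of Mmp2 to Timp2 was 1.20 ± 0.114, 0.545 ± 0.0114, 0.357 ± 0.0158 and 3.04 ± 0.0932 in the same order. Preadipocyte libraries had the highest ratio of Mmp2 to Timp2. Their Timp2 was the lowest of the 4 populations, while their Mmp2 was below that of progenitor and intermediate libraries and above that of smooth muscle libraries. The ratio of Mmp2 to Mmp14 was 3.42 ± 0.0403 in progenitor and 4.64 ± 0.197 in preadipocyte but 0.715 ± 0.0368 in intermediate and 0.836 ± 0.00603 in smooth muscle libraries. The ratio of Timp3 to Timp2 was 0.0318 ± 0.00401 in progenitor, 0.0648 ± 0.00775 in intermediate, 0.10 ± 0.0156 in smooth muscle and 0.0699 ± 0.00781 in preadipocyte libraries, so that progenitor libraries were lowest. The ratio of Timp1 to Timp2 was 0.205 ± 0.0313, 0.138 ± 0.0156, 0.102 ± 0.0299 and 0.306 ± 0.0554 in that order. Ratios were not tested. Per kilobase, Mmp2 led in progenitors (535 CPM per kilobase, ahead of Timp2 at 449), and Adamts1 led in intermediate (400.5) and smooth muscle libraries (339).

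Proteoglycan-cleaving Adamts genes were led by Adamts1, a versican- and aggrecan-cutting enzyme on chromosome 16 from 85793827 to 85803113. Adamts1 was at 1721, 1587 and 1825 CPM in progenitor, 2130, 2137 and 2104 in intermediate, 1797, 1876 and 1724 in smooth muscle and 436, 623 and 358 in preadipocyte libraries. Preadipocyte libraries were lowest, by -1.86 ± 0.17 (adjusted p = 1.95e-07) against progenitor, and no test among the other 3 populations passed the threshold. Its neighbour Adamts5, the main aggrecanase of mouse cartilage, was at 134, 154 and 128 CPM in progenitor, 85.7, 76.2 and 85.4 in intermediate, 55.1, 50.9 and 71.9 in smooth muscle and 11.5, 11.1 and 8.58 in preadipocyte libraries. Progenitor libraries were highest and preadipocyte libraries lowest, -3.74 ± 0.17 (adjusted p = 1.75e-10) apart. Smooth muscle minus intermediate was -0.48 ± 0.15 (adjusted p = 0.0277), which turned to 0.01 with library size alone and lost its call without smooth muscle replicate 1 (-0.43) or 2 (-0.38). Adamts4, another aggrecanase, was at 148, 127 and 145 CPM in progenitor, 179, 168 and 144 in intermediate, 97.1, 95.1 and 98.5 in smooth muscle and 28.8, 35 and 23.6 in preadipocyte libraries. Smooth muscle lay between preadipocytes and the others, at -0.53 ± 0.14 (adjusted p = 0.00553) against progenitor, a call lost with library size alone (-0.09, adjusted p = 0.554).

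Adamts9, a versican-cutting enzyme, was at 67.8, 79.2 and 73.8 CPM in progenitor, 107, 110.4 and 122 in intermediate, 92.7, 95.1 and 125 in smooth muscle and 36.8, 23.6 and 18.0 in preadipocyte libraries. Preadipocyte libraries were lowest, at -1.49 ± 0.21 (adjusted p = 1.80e-05) against progenitor. The smaller excesses over progenitor were 0.62 ± 0.20 (adjusted p = 0.0326) in intermediate and 0.50 ± 0.20 (adjusted p = 0.0455) in smooth muscle libraries. Both lost their calls without any 1 of the progenitor or intermediate libraries (0.43 to 0.61 for the first, 0.14 to 0.47 for the second). Neither was called without the low-count filter (0.39 for the first, 0.02 for the second). The second was also lost without any 1 of the smooth muscle libraries (0.33 to 0.58), without preadipocyte replicate 2 (0.47) and under the replicate block (0.50, adjusted p = 0.0586). Adamts15, another enzyme of the proteoglycan-cutting branch, was at 134, 108 and 108 CPM in progenitor, 86.8, 90.0 and 74.7 in intermediate, 117, 106 and 87.3 in smooth muscle and 50.9, 73.6 and 40.1 in preadipocyte libraries. Its spread across populations was narrow, and preadipocyte minus intermediate, -0.61 ± 0.19 (adjusted p = 0.0126), lost its call without intermediate replicate 1 (-0.44) or 2 (-0.47) and with library size alone (-0.19). It was also lost without the low-count filter (-0.44). Adamts8 was at 4.19, 2.87 and 3.01 CPM in progenitor, 15.5, 13.2 and 16.5 in intermediate, 35.7, 34.8 and 31.3 in smooth muscle and 1.84, 3.02 and 2.06 in preadipocyte libraries. All smooth muscle libraries exceeded all intermediate libraries, by 1.17 ± 0.19 (adjusted p = 0.000209), and these exceeded the rest; smooth muscle minus preadipocyte was 3.88 ± 0.22 (adjusted p = 1.18e-09). Adamts20, a versican-cutting enzyme known from skin pigment patterning, was at 5.82, 8 and 7.10 CPM in progenitor, 6.42, 8.80 and 7.54 in intermediate, 13.3, 10.8 and 9.68 in smooth muscle and 2.27, 2.05 and 2.28 in preadipocyte libraries. It was lowest in preadipocytes, and smooth muscle minus intermediate, 0.56 ± 0.20 (adjusted p = 0.0487), lost its call in 13 of the 21 alternatives, among them the replicate block (0.57, adjusted p = 0.0599) and the removal of any 1 of the progenitor (0.36 to 0.54), intermediate (0.29 to 0.47) or smooth muscle libraries (0.42 to 0.64) and of preadipocyte replicates 1 and 2 (both 0.54). Smooth muscle minus progenitor, 0.68 ± 0.20 (adjusted p = 0.0101), lost its call without progenitor replicate 1 (0.53) or 2 (0.43), any 1 of the intermediate libraries (0.32) or smooth muscle replicate 1 (0.54). It was also lost without the low-count filter (0.19).

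Procollagen-processing Adamts enzymes remove the amino-terminal propeptide of fibrillar collagens. Adamts2, the main one in skin, lies on chromosome 11 from 50602084 to 50807573 and was at 1148, 1281 and 1284 CPM in progenitor, 2274, 2189 and 2168 in intermediate, 726, 707 and 655 in smooth muscle and 106, 112 and 75.4 in preadipocyte libraries. No populations overlapped, and the order ran from intermediate over progenitor and smooth muscle to preadipocyte. Preadipocyte minus intermediate was -4.50 ± 0.16 (adjusted p = 2.34e-11), intermediate minus progenitor 0.84 ± 0.14 (adjusted p = 0.000552) and smooth muscle minus progenitor -0.83 ± 0.14 (adjusted p = 0.000194). Adamts14, of the same branch, was at 32.4, 30.6 and 32.3 CPM in progenitor, 27.2, 24.6 and 21.1 in intermediate, 34.3, 29.5 and 25.2 in smooth muscle and 14.8, 13 and 8.24 in preadipocyte libraries. Preadipocyte minus progenitor was -1.40 ± 0.20 (adjusted p = 1.88e-05), and no test among the other 3 populations passed the threshold. Adamts3 averaged at most 6.28 CPM, in intermediate libraries, and was lower in preadipocytes (1.42 CPM) than in each other population.

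Fibrillin-associated members came next. Adamts10, a microfibril-binding enzyme altered in a form of Weill-Marchesani syndrome, was at 341, 298 and 303 CPM in progenitor, 513, 513 and 441 in intermediate, 143, 145 and 123 in smooth muscle and 49.0, 46.7 and 34.2 in preadipocyte libraries. Intermediate libraries exceeded the others, with smooth muscle minus intermediate at -1.84 ± 0.15 (adjusted p = 1.19e-07). Intermediate minus progenitor, 0.64 ± 0.14 (adjusted p = 0.00425), lost its call without progenitor replicate 2 (0.44) and without intermediate replicate 1 (0.40) or 2 (0.46). It was also lost without the low-count filter (0.41). Its close relative Adamts6 was at 7.76, 9.64 and 9.11 CPM in progenitor, 12.7, 13.2 and 14.3 in intermediate, 9.11, 8.52 and 8.90 in smooth muscle and 1.03, 1.33 and 1.56 in preadipocyte libraries. Intermediate minus progenitor was 0.60 ± 0.18 (adjusted p = 0.0239), a call lost without any 1 of the progenitor or intermediate libraries (0.41 to 0.60) and without the low-count filter (0.37). Adamts17, also altered in a Weill-Marchesani-like syndrome, was at 5.90, 5.74 and 6.10 CPM in progenitor, 32.2, 30.6 and 22.6 in intermediate, 33.3, 29.1 and 25.7 in smooth muscle and 4.16, 3.81 and 2.51 in preadipocyte libraries. Intermediate and smooth muscle libraries overlapped at the high level, and smooth muscle minus progenitor was 2.31 ± 0.20 (adjusted p = 1.98e-07).

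Adamts7 and Adamts12 both cut cartilage oligomeric matrix protein. Adamts7, studied for smooth muscle migration and coronary disease, was at 27.9, 26.5 and 31.4 CPM in progenitor, 44.6, 45.9 and 43.9 in intermediate, 23.0, 22.3 and 20.4 in smooth muscle and 12.7, 10.8 and 6.63 in preadipocyte libraries. Its smooth muscle libraries were not the highest: smooth muscle minus intermediate was -1.03 ± 0.18 (adjusted p = 0.000440). Intermediate minus progenitor, 0.65 ± 0.18 (adjusted p = 0.0163), lost its call without progenitor replicate 1 (0.61) or 2 (0.44) or any 1 of the intermediate libraries (0.45 to 0.53). It was also lost without the low-count filter (0.42). Adamts12 was at 179, 183 and 184 CPM in progenitor, 222, 222 and 184 in intermediate, 155, 149.5 and 111 in smooth muscle and 65.2, 51.6 and 42.7 in preadipocyte libraries. Preadipocyte minus progenitor was -1.78 ± 0.17 (adjusted p = 2.65e-07). Smooth muscle minus progenitor, -0.39 ± 0.16 (adjusted p = 0.0491), turned to 0.05 with library size alone. That call was lost with DESeq2 and its size factors in edgeR (both -0.37), the filter of 5 CPM (-0.20) and an even background subtracted (-0.22). It was also lost without progenitor replicate 1 (-0.44) or 3 (-0.43) or smooth muscle replicate 2 (-0.47) or 3 (-0.28). Adamts19 was at 16.9, 15.5 and 17.4 CPM in progenitor, 0.891, 1.05 and 2.27 in intermediate, 10.9, 12 and 9.61 in smooth muscle and 4.10, 2.72 and 2.01 in preadipocyte libraries. It was the 1 member lowest in intermediate libraries by all 3 tests (1.45% of all genes), although they overlapped preadipocyte libraries, with intermediate minus progenitor at -3.57 ± 0.32 (adjusted p = 1.10e-06). The intermediate mean of Adamts19, 1.40 CPM, lay under 2 times the 0.906 CPM of an even background described below, and with that background subtracted the difference was -4.89. Without intermediate replicate 3 it was -4.22, and preadipocyte minus intermediate, 1.08 ± 0.33 (adjusted p = 0.0115), lost its call without preadipocyte replicate 1 (0.78). Adamts16 and Adamts18 peaked at 6.91 and 6.27 CPM in progenitor libraries and were lower in preadipocytes, at 1.67 and 0.869 CPM, than in each other population. Adamts13, which cuts von Willebrand factor, averaged at most 1.03 CPM.

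Of the 5 Adamts-like genes, 3 were highest in progenitors. Adamtsl3 was at 108, 93.7 and 102 CPM in progenitor, 51.1, 47.2 and 39.9 in intermediate, 9.18, 12.8 and 9.75 in smooth muscle and 15.2, 16.4 and 10.5 in preadipocyte libraries. Smooth muscle minus progenitor was -3.25 ± 0.19 (adjusted p = 2.37e-09) and preadipocyte minus progenitor -2.85 ± 0.19 (adjusted p = 5.88e-09), and smooth muscle minus preadipocyte did not pass the threshold (-0.40 ± 0.18, adjusted p = 0.0632). This last difference was called under some alternatives, DESeq2 among them, which placed Adamtsl3 lowest in smooth muscle. Adamtsl1 was at 138, 124 and 148 CPM in progenitor, 51.5, 55.5 and 45.5 in intermediate, 47.6, 53.1 and 47.2 in smooth muscle and 29.2, 34.4 and 27.1 in preadipocyte libraries. Every progenitor library exceeded every other library more than 2-fold in CPM, with intermediate minus progenitor at -1.43 ± 0.13 (adjusted p = 1.73e-06). Adamtsl5, which binds fibrillin-1, was at 99.7, 87.3 and 90.9 CPM in progenitor, 37.4, 35.9 and 37.5 in intermediate, 30.3, 29.6 and 28 in smooth muscle and 7.61, 8.64 and 8.86 in preadipocyte libraries. Preadipocyte minus progenitor was -3.47 ± 0.13 (adjusted p = 4.54e-11), while smooth muscle minus intermediate, -0.34 ± 0.12 (adjusted p = 0.0470), turned to 0.15 with library size alone. That call was lost without progenitor replicate 1 or 3 (both -0.36), without any 1 of the smooth muscle libraries (-0.36 to -0.32) and under the replicate block (-0.34, adjusted p = 0.0730). It was also lost with DESeq2 size factors in edgeR (-0.32), the filter of 5 CPM (-0.27) and an even background subtracted (-0.25).

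The other two Adamts-like genes were not called highest in progenitors. Adamtsl4, a microfibril protein altered in inherited lens dislocation, was at 163, 166 and 175 CPM in progenitor, 142, 134 and 139 in intermediate, 76.1, 71.2 and 69.4 in smooth muscle and 13.2, 8.22 and 8.41 in preadipocyte libraries. Every progenitor library exceeded every intermediate library, but intermediate minus progenitor did not pass the threshold (-0.28 ± 0.15, adjusted p = 0.173), and preadipocyte minus progenitor was -4.08 ± 0.17 (adjusted p = 8.98e-11), after Mmp3 the largest in size among the members. Adamtsl2, a fibrillin-binding protein altered in geleophysic dysplasia, was at 4.27, 3.69 and 3.42 CPM in progenitor, 15.2, 12.6 and 14.8 in intermediate, 5.16, 6.87 and 5.30 in smooth muscle and 0.972, 1.81 and 1.11 in preadipocyte libraries. It was highest in intermediate libraries, by 1.90 ± 0.23 (adjusted p = 2.77e-05) over progenitor, under every alternative. Smooth muscle exceeded progenitor by 0.61 ± 0.23 (adjusted p = 0.0386), a call lost without any 1 of the progenitor, intermediate or smooth muscle libraries (0.23 to 0.68). It was also lost without the low-count filter (0.13) and with an even background subtracted (0.48).

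Highest in smooth muscle by all 3 tests were Mmp15, Mmp17, Mmp24, Timp4, Adamts8 and Adamts20. At 6 of the 46 members tested, this class was near its share of all genes, 10.9%. Of the 6, 4 (Mmp17, Mmp24, Timp4 and Adamts8) kept that place in every alternative that tested them. Sums of the mesothelial markers (1110 to 1500 CPM) and of the Schwann and neuronal markers (529 to 708 CPM) were also higher in smooth muscle libraries than in every other library. All 6 mesothelial markers averaged above 1 CPM in all 4 populations and were highest in smooth muscle, where Upk3b averaged 419 and Msln 338 CPM. Of the 7 Schwann and neuronal markers, 6 were highest in smooth muscle, with Stmn2 at 317, Dbh at 139 and Th at 104 CPM, whereas S100b averaged 5.53 CPM there and 16.6 CPM in progenitors. Their part in the levels of these 6 members was not tested.

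The lowest levels in smooth muscle were read against a background. Olfactory and vomeronasal receptor genes, 1223 genes used in sensory neurons, held 774 to 1117 CPM by library size in smooth muscle libraries and 40.6 to 345 in the others. Their count per kilobase of exon, spread evenly over all genes, gave each member a background level. In smooth muscle, 6 members lay under 2 times that level, namely Mmp12 (1.53 against 1.22 CPM), Adamts13 (1.03 against 0.831), Mmp9 (0.693 against 0.597), Mmp20 (0.668 against 0.555), Mmp1a (0.662 against 0.342) and Mmp13 (0.596 against 0.451). These 6 were singled out after their values were seen. Mmp12, Adamts13 and Mmp1a had been called higher in smooth muscle than in preadipocytes, and Adamts13 and Mmp1a also higher than in progenitors. With this background subtracted, 43 members were tested. Of these, 37 were higher and 4 lower in smooth muscle than in preadipocytes, and 11 were higher and 18 lower than in progenitors. In 1 or more of the other populations the same held for Adamts13, Adamts19, Mmp1a, Mmp9, Mmp10, Mmp12, Mmp13, Mmp20 and Mmp25, of which Adamts19 and Mmp9 were so in intermediate libraries. Timp4, at 12.8 against 0.995 CPM, and Mmp17, at 58.7 against 1.12, were far above it.

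**Figure D5:**
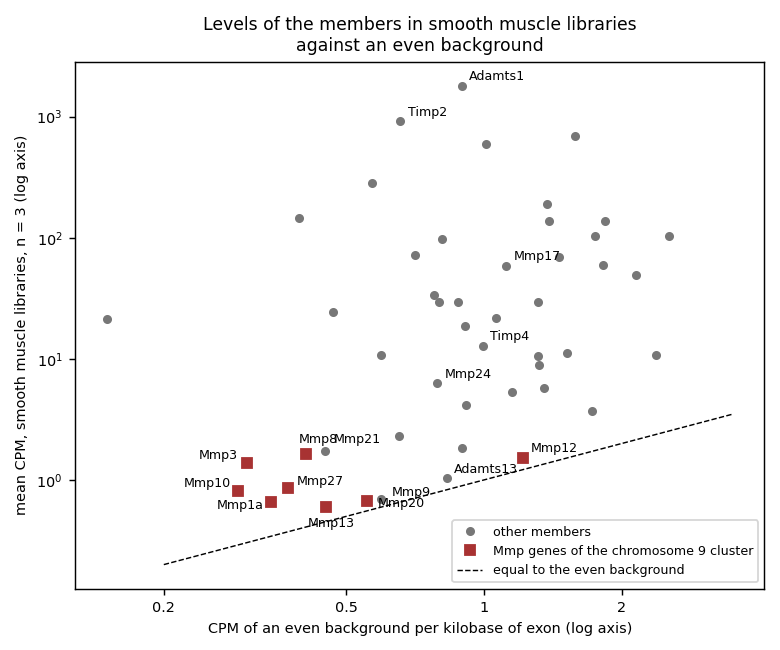
Each point is 1 of the 49 members, with its mean CPM over 3 smooth muscle libraries (vertical, log axis) against the CPM that an even background per kilobase of exon would give it (horizontal, log axis); the dashed line marks equality. Squares, the 8 Mmp genes of the chromosome 9 row, lie below 2 CPM, and Mmp12, Mmp9, Mmp13, Mmp20 and Adamts13 sit close to the line.

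Genes that act with these families were tested alongside them: of 46 related genes, 6 were higher and 28 lower in preadipocytes than in progenitors, with a median difference of -1.26, where 25.1% of all genes tested were higher and 25.9% lower, with a median of 0.04. Among 11 activators and plasminogen genes, 9 differed among the populations, near the 79.8% of all genes that did, and 2 were higher and 5 lower in preadipocytes than in progenitors (median -0.80). Serpine2, an inhibitor of plasminogen activators and thrombin, averaged 569 CPM in smooth muscle libraries and 35.6 to 45.1 in the other populations. Plat, tissue plasminogen activator, was at 707 CPM in progenitor libraries and at 238, 172 and 80.3 CPM in intermediate, smooth muscle and preadipocyte libraries. Of 12 genes for membrane inhibitors, clearance and adaptors all differed, and 1 was higher and 8 lower in preadipocytes than in progenitors (median -1.54). Reck, a membrane-anchored Mmp inhibitor, averaged 265 CPM in progenitor, 166 in intermediate, 70.7 in smooth muscle and 32.1 in preadipocyte libraries. Tfpi2, a protease inhibitor of the matrix, averaged 44.4, 20.8, 7.38 and 7.94 CPM in that order.

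Of 8 Adam sheddases, membrane enzymes that cut surface proteins, 7 differed, near the share of all genes, with 0 higher and 5 lower in preadipocytes than in progenitors (median -0.55), where 25.9% of all genes were lower. Adam33 averaged 110.3, 44.7, 37.7 and 32.3 CPM and Adam15 90.4, 72.2, 31.3 and 20.4 CPM in the same order. Of 15 substrates 14 differed, with 3 higher and 10 lower in preadipocytes than in progenitors (median -1.96). Against progenitor, intermediate libraries had 8 substrates higher and 2 lower, where 14.1% of all genes were higher and 13.4% lower. Smooth muscle libraries had 5 higher and 9 lower than progenitor, where 30.5% of all genes were higher, near the share of the substrates, and 23.6% lower. Col1a2, a chain of type I collagen, averaged 48439 CPM in progenitor, 67868 in intermediate, 8582 in smooth muscle and 3690 in preadipocyte libraries. Col3a1, type III collagen, averaged 96528, 102568, 13175 and 9259 CPM in that order.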

How the data were processed

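Poly(A) RNA of 12 libraries was counted per gene by the authors, who deposited whole-number read counts. The sources used here do not give the strand or tool of counting, and the submitters' processing notes name STAR 2.5.2a, DESeq2 1.26.0 and mm10. The authors also deposited a normalized signal table, the counts divided by 1 factor per library, and a table of log2 values, neither used in tests. Symbols were those deposited with the counts, which 22332 of 36512 identifiers had, and members were matched on these. Genes without a deposited symbol took the name in GENCODE M21, which named 36480 identifiers.

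Counts were tested with edgeR 4.0.16 in R 4.3.3 (TMM scaling, filterByExpr, quasi-likelihood F tests, 1 model with 4 populations, all 6 pairwise contrasts, Benjamini-Hochberg threshold 0.05), checked first on simulated counts. Members with a mean of at least 10 CPM in a population are given by library, and others are named where they pass a test and reach 2 CPM. Mmp9 and Mmp24, which reach only 2 to 10 CPM, are also given by library. Alternatives were library size alone, DESeq2 1.42.0 and its size factors, limma 3.58.1 voom, all genes with a count, a filter of 5 CPM in 3 libraries, the replicate number as a block, each pair alone, an even background subtracted, and each library left out in turn. The members, gene lists and motifs were chosen with earlier results of these data known. Libraries of 11701825 to 17123109 counts set the floor, 3 counts, at 0.175 to 0.256 CPM by library size. There were no molecular identifiers, so floors cover counting error only.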

Additional observations from a re-analysis of the deposited data

How the results depend on the processing

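Of 197 pairwise calls on members, 161 held in every alternative that tested them, and of 5698 values under the alternatives 5346 kept direction and side of the threshold, 169 lost a call, 176 gained one and 7 reversed. All 7 reversed with library size alone: smooth muscle minus intermediate became 0.01 for Adamts5, 0.44 for Adamtsl1, 0.15 for Adamtsl5, 0.39 for Mmp19 and 0.40 for Timp3, and smooth muscle minus progenitor 0.44 for Adamts6 and 0.05 for Adamts12. That scaling moved the median over all genes from 0.09 to 0.53 for smooth muscle minus progenitor, from 0.10 to 0.58 for smooth muscle minus intermediate and from 0.04 to 0.43 for preadipocyte minus progenitor. Counts of members also changed. Members higher in preadipocyte than in progenitor, 2 in the analysis reported, numbered 5 with library size alone, 4 with DESeq2 and 1 in the pair alone; those higher in smooth muscle than in intermediate, 8, numbered 18 with library size alone and 13 with voom. Intermediate against progenitor, 14 higher and 9 lower, gave 9 higher and 14 lower without the filter and 14 lower with voom. Members lower in smooth muscle than in progenitor, 17, numbered 26 without the filter. Members highest in progenitors, 7, numbered 11 with voom and 13 without the filter, and those highest in intermediate cells, 7, numbered 4 without the filter. Members highest in smooth muscle, 6, numbered 13 with library size alone and 10 with voom. Members highest in preadipocytes, 1, numbered 2 with DESeq2, its size factors, library size alone and the filter of 5 CPM. The causes of these changes were not tested.

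With each library left out in turn, members higher in preadipocyte than in progenitor ranged from 1 to 3 and than in intermediate from 2 to 4. Members higher in intermediate than in progenitor ranged from 8 to 15, lower from 9 to 13. Members lower in smooth muscle than in progenitor ranged from 16 to 26, and those higher in smooth muscle than in intermediate from 5 to 10. The classes highest in progenitor, intermediate, preadipocyte and smooth muscle ranged from 7 to 12, 3 to 7, 1 to 1 and 4 to 8, and the class lowest in preadipocyte from 29 to 31. Over all genes, smooth muscle differed from intermediate for 6127 genes and for 10454 with library size alone, smooth muscle from progenitor for 11525 and for 17437 without the filter, and intermediate from progenitor for 5870 and for 3780 without progenitor replicate 1. Replicate numbers showed no clear pairing of the libraries. Deviations of same-numbered libraries correlated between -0.14 and 0.18, over 0.1 in 5 of 18 pairs. Of 12 libraries, 5 correlated best with their own number. Weak correlations cannot show whether same-numbered libraries share a litter or a sort. With the replicate number as a block, 37, 24, 30, 39, 23 and 44 members differed for preadipocyte, intermediate and smooth muscle against progenitor, preadipocyte and smooth muscle against intermediate, and smooth muscle against preadipocyte. Depth limits members under 2 CPM, where 1 library can hold a few counts.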
